A study of Mus musculus with 13 samples.

Results

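The 8 genes described here belong to the complement system and were measured in the right hemisphere of mice at postnatal day 11: *C1qa*, *C1qb* and *C1qc*, which encode the chains of C1q, the components *C3* and *C4b*, the inhibitor *Serping1*, and the receptors *C3ar1* and *C5ar1*. They were listed by name as complement components, a regulator and receptors, by a rule that uses no measured value but was written with results of these data already known, and they are 8 of the 48795 gene identifiers in the table. The tissue left out the olfactory bulb and the cerebellum. The nlsYAP5SA group held 5 mice of the genotype NexCre +/- YAP5SAnls +/-, in which Cre removes a STOP cassette in front of a nuclear, phosphomutant and hyperactive YAP1. The control group held 5 mice of the genotype NexCre -/- YAP5SAnls +/-, which carry the same silent transgene without Cre, and a further 3 wild-type mice on a C57BL/6 background carried neither. Cre from the NEX locus acts in neuronal precursors of the NeuroD6 lineage, so microglia, vessels and other cells outside that lineage are not where recombination is driven. The nlsYAP5SA and control mice were littermates from 2 matings that the labels do not assign, and animals of both sexes were used without a record of the sex of each.

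Complement is a cascade of plasma and tissue proteins that marks surfaces for removal. In the classical pathway C1q, with its proteases C1r and C1s, cleaves C4 and C2, and the resulting convertase cleaves C3. C3 fragments bind to surfaces and are read by integrin receptors on phagocytes, while the small fragments C3a and C5a act on the receptors C3aR and C5aR. In the brain, microglia are the main source of C1q, C4 is made largely by astrocytes and other glia, and the pathway is known for tagging synapses for removal during postnatal development.

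All 8 genes lie on the minus strand of GRCm38. The genes of the C1q chains stand side by side on chromosome 4 within 18675 bases, *C1qb* at chr4:136880129-136886187, *C1qc* at chr4:136889804-136893065 and *C1qa* at chr4:136895917-136898803. *C3* lies at chr17:57203970-57228136, *C4b* at chr17:34728380-34743882, *C3ar1* at chr6:122847138-122856161, *C5ar1* at chr7:16246743-16259540 and *Serping1* at chr2:84765387-84775444. All are protein-coding in the GENCODE annotation, and no exon of theirs overlaps another gene. *C4b* is the member whose reads could be shared with a copy: 34.6% of its 50-base words also occur in *C4a*, 65209 bases away, against 0 shared words for each of the other 7.

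The bases in front of the start sites are shown for a pair of neighbouring C1q genes, both called higher in nlsYAP5SA mice, and for *C3*, whose change was the least certain of the 8. RefSeq promoters on GRCm38.p6 were found for 5 of the 8 genes. Capitals mark GAGGAA, the core read by the myeloid factor PU.1, or its reverse complement TTCCTC, in the C1q genes, and a match to TTGCNNAA, read by C/EBP factors, in *C3*. The windows are chr4:136886201-136886450 for *C1qb*, chr4:136893066-136893164 for *C1qc*, cut where the annotated gene begins, and chr17:57228137-57228386 for *C3*, all read 5′ to 3′ on the minus strand.
C1qb: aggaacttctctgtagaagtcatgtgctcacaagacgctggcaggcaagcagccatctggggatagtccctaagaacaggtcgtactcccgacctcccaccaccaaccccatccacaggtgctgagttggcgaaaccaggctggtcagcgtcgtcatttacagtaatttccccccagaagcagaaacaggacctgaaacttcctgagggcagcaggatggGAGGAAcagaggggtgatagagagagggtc
C1qc: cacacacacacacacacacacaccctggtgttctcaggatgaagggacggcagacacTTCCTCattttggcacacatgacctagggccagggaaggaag
C3: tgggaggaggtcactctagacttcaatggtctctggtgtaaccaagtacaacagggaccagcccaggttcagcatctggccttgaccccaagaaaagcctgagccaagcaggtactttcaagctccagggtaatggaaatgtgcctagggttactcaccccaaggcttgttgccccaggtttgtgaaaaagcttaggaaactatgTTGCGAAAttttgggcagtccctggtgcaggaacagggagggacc

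The PU.1 letters start 30 bases before the start of *C1qb* and 193 bases before that of *C1qc*, and they occur on either strand in 23.2% of the 32851 promoters of the same length. The C/EBP match starts 45 bases before the start of *C3*, and 9.56% of promoters hold one. CATTCC, the core bound by the TEAD partners of YAP1, occurred in 0 of the 5 promoters and in 12.6% of all. The TATA letters TATAAA were found in *C3ar1*, 235 bases before its start, and in 12.4% of all promoters. STAT letters (TTCNNNGAA) and the NF-kB and IRF motifs occurred in 0 of the 5, against 7.02%, 0.36% and 2.98% of all, each read on both strands. These are matches of letters in a window and nothing was measured on them here.

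Libraries held between 20871566 and 25524349 estimated counts, and the ranges of the 3 groups overlapped. Each level is in CPM, a gene's counts relative to the TMM-scaled size of its library. *Yap1* was 20.7 ± 0.963 CPM (SD, n = 5) in controls and 24.2 ± 1.52 CPM (n = 5) in nlsYAP5SA mice, and *Neurod6*, the locus that holds Cre, was 97.2 ± 7.60 and 49.2 ± 7.16 CPM. How far reads of the transgene were counted under *Yap1* is not given in the sources used here. The groups were unbalanced in reads from 4 Y-linked genes (*Ddx3y*, *Eif2s3y*, *Kdm5d* and *Uty*). All 5 controls had them, with sums of 90.9 to 129 CPM, as did nlsYAP5SA mice 3 and 4 and C57BL/6 mice 1 and 3. They were near 0 in nlsYAP5SA mice 1, 2 and 5 and in C57BL/6 mouse 2. *Ttr*, a transcript of choroid plexus, ran from 0.782 to 275 CPM, with high and low libraries in each group.

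The C1q chains all rose in nlsYAP5SA mice, by 2.16- to 2.48-fold. *C1qa* was 24.8, 20.1, 20.5, 23.6 and 21.5 CPM in controls 1 to 5 and 54.7, 52.8, 43.2, 46.1 and 53.2 CPM in nlsYAP5SA mice 1 to 5. The lowest nlsYAP5SA mouse was well above the highest control. The log2 fold change was 1.18 (SE 0.084), a 2.26-fold higher level, with an adjusted p of 3.2e-06 by edgeR's quasi-likelihood test. *C1qb* was 24.1, 19.6, 18.6, 20.98 and 19.8 CPM in controls and 56.1, 52.4, 46.3, 46.9 and 54.7 CPM in nlsYAP5SA mice. It too had no overlap, with a log2 fold change of 1.31 (SE 0.083, 2.48-fold, edgeR adjusted p = 1.4e-06). *C1qc* was 26.4, 23.5, 22.4, 25.3 and 24.2 CPM in controls and 53.3, 56.5, 47.1, 51.4 and 55.2 CPM in nlsYAP5SA mice. Its spread was the narrowest of the chains in nlsYAP5SA mice, and the groups stood apart at a log2 fold change of 1.11 (SE 0.066, 2.16-fold, edgeR adjusted p = 9.9e-07). In all 3 chains nlsYAP5SA mice 3 and 4, those with Y-linked reads, were the lowest of their group. In bulk tissue, more cells of a type and more RNA per cell cannot be told apart.

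All 8 genes were called higher in nlsYAP5SA mice than in controls, where 7.36% of the 16315 genes tested were. In all 8 every nlsYAP5SA mouse was also above every control, as for 6.5% of genes tested. Their median log2 fold change was 1.24, against -0.005 over all genes tested. The called genes with a log2 fold change of at least 1 were 2.46% of those tested, and each of the 8 was among them.

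**Figure D1:**
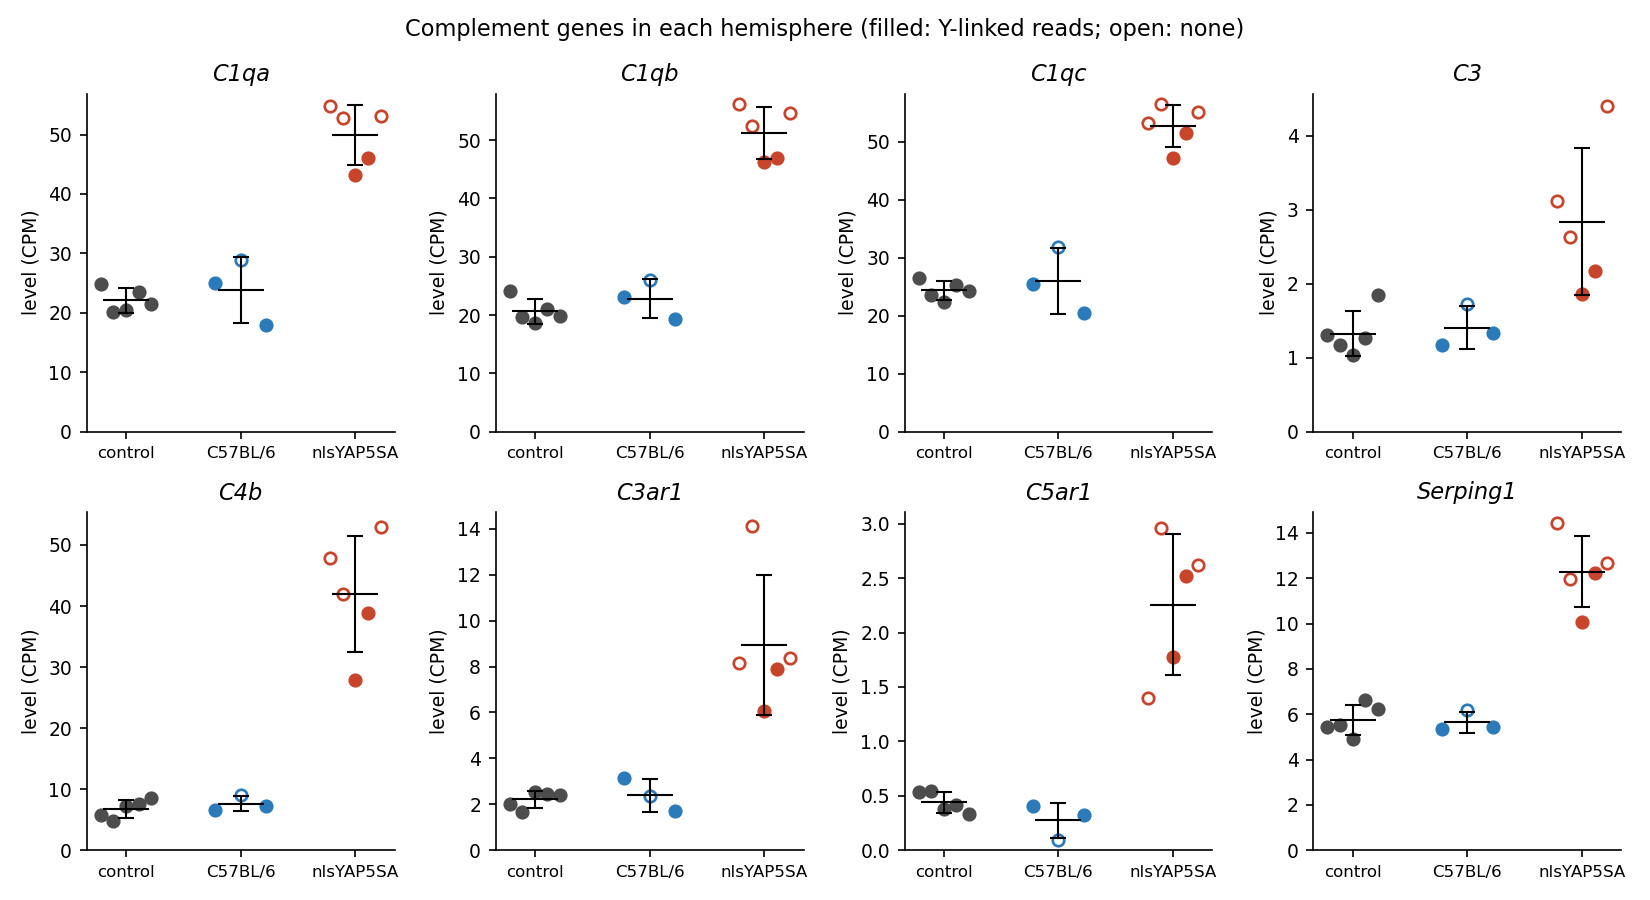
Level of each of the 8 complement genes in CPM (linear axis from 0) in every hemisphere, by group. Points are mice, filled where Y-linked reads were present and open where they were not, with the mean and SD in black; in every panel all 5 nlsYAP5SA points lie above all 5 control points.

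Among the components cleaved in the cascade, *C4b* changed the most. *C4b*, one of the mouse genes for C4, was 5.80, 4.77, 7.21, 7.51 and 8.496 CPM in controls and 47.8, 42.0, 27.9, 38.9 and 53.0 CPM in nlsYAP5SA mice. The lowest nlsYAP5SA value, in mouse 3, was still far above the highest control value. The log2 fold change was 2.63 (SE 0.18), or 6.21-fold, with an edgeR adjusted p of 2.6e-06. *C4a*, which shares sequence with it, held 3 to 10 counts per library in controls and nlsYAP5SA mice, too few to pass the filter. In C57BL/6 mice *C4a* was 0.484 to 0.527 CPM, against 0.123 to 0.336 CPM in controls. That difference was not called (log2 fold change 1.23, SE 0.35, edgeR adjusted p = 0.7).

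*C3*, the component on which all activation pathways converge, was a low transcript in this tissue. It was 1.31, 1.17, 1.04, 1.26 and 1.84 CPM in controls and 3.12, 2.63, 1.86, 2.17 and 4.40 CPM in nlsYAP5SA mice. The groups did not overlap, but control 5 and nlsYAP5SA mouse 3 nearly touched. The log2 fold change was 1.10 (SE 0.24, 2.14-fold, edgeR adjusted p = 0.0113). With the Y-linked level as a covariate the log2 fold change of *C3* was 0.63 and the call was lost (edgeR adjusted p = 0.301).

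*Serping1* encodes C1 inhibitor, a serpin that blocks the proteases C1r and C1s. It was 5.43, 5.52, 4.92, 6.63 and 6.23 CPM in controls and 14.5, 11.95, 10.1, 12.3 and 12.7 CPM in nlsYAP5SA mice. The groups were clearly separated, with mouse 3 again the lowest of the nlsYAP5SA group. Its log2 fold change, 1.09 (SE 0.11, 2.13-fold, edgeR adjusted p = 4.4e-05), was close to those of the C1q chains.

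Both receptors of the small fragments rose, from low levels. *C3ar1*, the receptor of C3a, was 2.002, 1.68, 2.54, 2.43 and 2.41 CPM in controls and 8.18, 14.1, 6.06, 7.91 and 8.38 CPM in nlsYAP5SA mice. Mouse 2 stood far above the other nlsYAP5SA mice, which were themselves all above the controls. The log2 fold change was 2.01 (SE 0.22, 4.03-fold, edgeR adjusted p = 6.9e-05). *C5ar1*, the receptor of C5a, was 0.531, 0.548, 0.375, 0.420 and 0.330 CPM in controls, which is 7 to 14 counts per library, and 1.40, 2.96, 1.78, 2.52 and 2.62 CPM in nlsYAP5SA mice. It was the rarest of the 8 in controls, and here mouse 1 was the lowest of the nlsYAP5SA group. The log2 fold change was 2.33 (SE 0.26, 5.02-fold, edgeR adjusted p = 8.4e-05).

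Within the nlsYAP5SA group, mice with and without Y-linked reads differed in several of these levels. For 6 of the 8 genes the 3 mice without Y-linked reads were all above the 2 with them, as for 7.83% of genes tested; *C5ar1* and *Serping1* overlapped. No nlsYAP5SA mouse overlapped the controls for any of the 8 genes. The 2 with Y-linked reads were therefore above all 5 controls too, which adds no separate check. When only samples with Y-linked reads were compared, 2 nlsYAP5SA mice against 5 controls, 7 of the 8 genes remained higher, where 1.82% of 16918 genes were. *C3* was the exception, at a log2 fold change of 0.60 (edgeR adjusted p = 0.42). In this subset *C4b* had a log2 fold change of 2.30 (adjusted p = 5.4e-04), *C5ar1* 2.26 (adjusted p = 0.00433) and *C1qb* 1.17 (adjusted p = 6.0e-04). With the Y-linked level as a covariate over all 10 mice, the same 7 were called, where 3.32% of all genes were called in either direction.

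Per kilobase of annotated exon, taken over all transcripts of a gene, the order of levels was nearly the same in both groups. In controls *C1qa* stood at 21.2, *C1qb* at 18.9 and *C1qc* at 12.6 CPM per kb, followed by *Serping1* at 2.47, *C4b* at 1.19, *C3ar1* at 0.514, *C3* at 0.258 and *C5ar1* at 0.172 CPM per kb. The ranges of *C1qa* and *C1qb* overlapped in controls, as did those of *C3* and *C5ar1*; each other neighbouring pair was apart. In nlsYAP5SA mice *C1qa* was 48.1, *C1qb* 47.1, *C1qc* 27.3, *C4b* 7.36, *Serping1* 5.28, *C3ar1* 2.07, *C5ar1* 0.878 and *C3* 0.552 CPM per kb. *C4b* had moved above *Serping1* in 5 of 5 mice, although their ranges overlapped, and *C5ar1* was above *C3* in 4 of 5 mice.

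The C57BL/6 mice lacked both Cre and the transgene and showed how far these levels vary without either. Their levels were 25.0, 28.8 and 17.9 CPM for *C1qa*, 23.2, 25.96 and 19.3 CPM for *C1qb*, and 25.4, 31.9 and 20.5 CPM for *C1qc*. *C4b* was 6.54, 9.003 and 7.30 CPM, and *C3* was 1.17, 1.72 and 1.33 CPM. *Serping1* was 5.33, 6.18 and 5.45 CPM, *C3ar1* was 3.14, 2.35 and 1.69 CPM, and *C5ar1* was 0.403, 0.0958 and 0.323 CPM. All 8 overlapped with the controls. C57BL/6 mouse 2, the one without Y-linked reads, was the highest of its group for the C1q chains, *C3*, *C4b* and *Serping1*. It was in between for *C3ar1* and the lowest for *C5ar1*. How often this mouse was the highest over all genes was not tested, so this order is given as a description only.

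None of the 8 was called between C57BL/6 and control mice, where 0.169% of 16546 genes were. By edgeR 0 of the 8 had an unadjusted p under 0.05, the lowest being 0.139 for *C5ar1*, against 3.78% of genes tested, and DESeq2 called 0 of the 8 too, where it called 0.357% of genes. The log2 fold changes ran from -0.66 (SE 0.42) for *C5ar1* to 0.17 (SE 0.19) for *C4b*. With 3 mice in the smaller group, a difference of the size of these standard errors was not detectable.

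Against the C57BL/6 mice, the nlsYAP5SA mice were higher for 7 of the 8 genes, where 4.16% of 16641 genes were called higher. For all 8 every nlsYAP5SA mouse was above every C57BL/6 mouse, as for 8.71% of genes. The comparison shares its nlsYAP5SA mice with the one above. The log2 fold changes were 1.05 (SE 0.15) for *C1qa*, 1.16 (SE 0.11) for *C1qb*, 1.01 (SE 0.13) for *C1qc*, 2.45 (SE 0.21) for *C4b*, 1.89 (SE 0.30) for *C3ar1*, 2.98 (SE 0.42) for *C5ar1* and 1.10 (SE 0.13) for *Serping1*. The value for *C5ar1* rests on 2 to 9 counts in each C57BL/6 mouse, and the gene passed the filter through the nlsYAP5SA mice, so its size is uncertain. Their edgeR adjusted p-values were between 2.3e-04 and 0.00578. *C3* had a log2 fold change of 0.99 (SE 0.30) and missed the threshold (edgeR adjusted p = 0.0821), although DESeq2 and a fit of all 13 samples called it (adjusted p = 0.0262 and 0.0361), as did the fit without nlsYAP5SA mouse 3 (adjusted p = 0.05), each of which called 8 of 8. Only 3 of the 8 were called when the mice without Y-linked reads were left out, which leaves 2 against 2, and 0.261% of genes were then called higher. The log2 fold changes of the genes that lost their call were 1.05 for *C1qa*, 1.53 for *C3ar1*, 2.54 for *C5ar1* and 1.04 for *Serping1*.

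**Figure D2:**
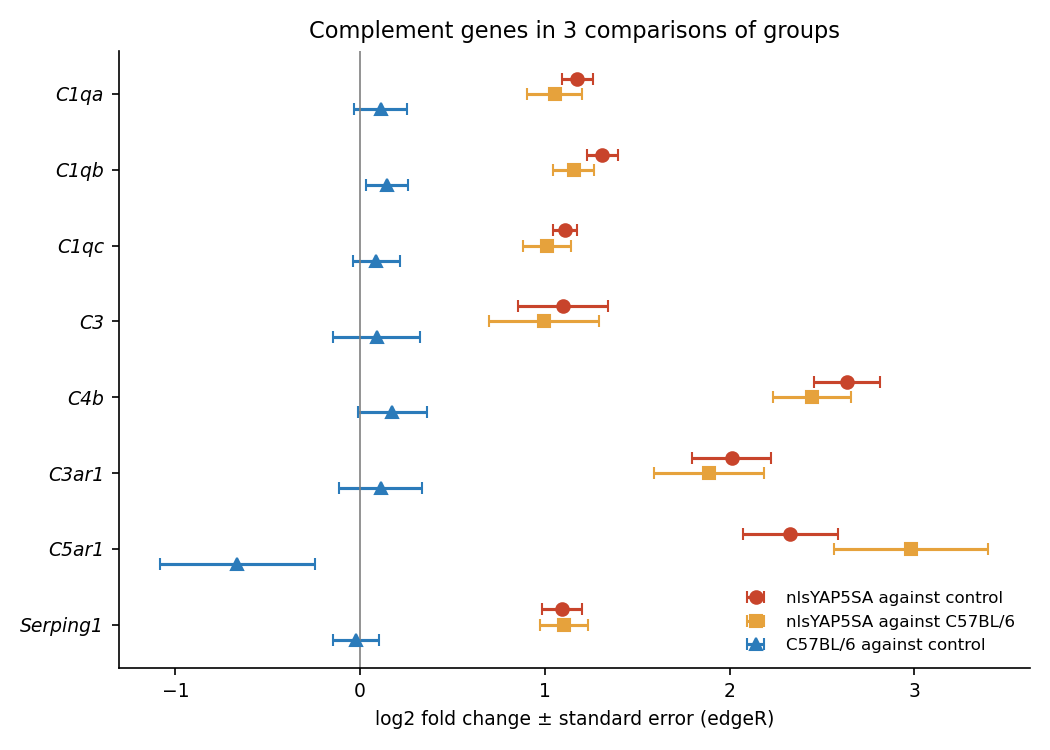
Log2 fold change and standard error of each of the 8 genes in the 3 comparisons of groups, from edgeR. Both comparisons with nlsYAP5SA mice lie to the right of 0 for every gene, from 0.99 for C3 to 2.98 for C5ar1, which held 2 to 9 counts in C57BL/6 mice, while C57BL/6 against control runs from -0.66 to 0.17.

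The rest of the complement system was read from a list of 52 further genes, of which 27 had enough counts to be tested between nlsYAP5SA and control mice. Of these, 9 were called higher, where 7.36% of all genes tested were, and 2 were called lower, where 3.44% were, which makes 11 called of 27 beside 10.8% of all genes. The other 16 were not called, and the median log2 fold change of the list was 0.14. With the Y-linked level as a covariate 4 of the 11 remained called, *Cfb*, *Clu*, *Itgb2* and *Vtn* (3.32% of all genes were), and with only the samples that had Y-linked reads 2 did, *Itgb2* and *Vtn* (1.97% of all genes were). Among the lost calls, the log2 fold changes with the covariate were 0.91 for *C1ra*, 0.97 for *C5ar2*, 0.93 for *Itgam*, 0.47 for *Cd59a*, 0.34 for *Colec12* and -0.19 for *Susd4*. In the subset of samples, which has 2 nlsYAP5SA mice, *Cfb* was at 1.99 (edgeR adjusted p = 0.0723) and *Clu* at 0.40 (adjusted p = 0.0689).

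Of the activating genes outside the 8, few were abundant. *C1ra*, which encodes the protease C1r, rose from 1.18 ± 0.161 to 2.45 ± 0.492 CPM (log2 fold change 1.04, SE 0.18, edgeR adjusted p = 0.00215). *C1s1*, for its partner C1s, was 0.798 ± 0.341 and 1.69 ± 0.550 CPM, and *C2* was 1.25 ± 0.131 and 1.95 ± 0.603 CPM; neither passed the threshold (edgeR adjusted p = 0.0512 and 0.0817), although *C1s1* did with DESeq2 (adjusted p = 0.0163) and without control 4 or nlsYAP5SA mouse 3 (adjusted p = 0.044 and 0.023), and *C2* did without nlsYAP5SA mouse 4 (adjusted p = 0.032). *Colec12*, a scavenger receptor of the collectin family, rose from 13.4 ± 1.24 to 19.3 ± 3.65 CPM with overlapping groups (edgeR adjusted p = 0.0185), and its call was lost without nlsYAP5SA mouse 1 or 5 (adjusted p = 0.0507 and 0.0538). *Cfb*, the protease of the alternative pathway, was 1.02, 0.821, 0.916, 1.17 and 0.189 CPM in controls and 2.71, 5.55, 2.08, 4.61 and 3.42 CPM in nlsYAP5SA mice. The groups stood apart, at a log2 fold change of 2.13 (SE 0.36, edgeR adjusted p = 0.00187). *C2* and *Cfb* lie close together in the same region as *C4b* on chromosome 17.

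The terminal pathway, whose proteins form the membrane attack complex, was close to undetected as RNA. Of 7 listed genes 1 passed the filter. *Hc*, the gene for C5, the source of the C5aR ligand, held 4 to 17 counts per library in controls and 6 to 20 in nlsYAP5SA mice and was not tested there.

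Regulators moved in both directions. *Clu*, for clusterin, rose from 322 ± 22.2 to 459 ± 36.2 CPM without overlap (log2 fold change 0.51, edgeR adjusted p = 3.8e-04), and *Cd59a*, an inhibitor of the membrane attack complex, from 3.63 ± 0.486 to 5.80 ± 1.35 CPM (edgeR adjusted p = 0.0156). *Vtn*, for vitronectin, fell by 0.39 on the log2 scale (61.5 ± 4.03 to 47.0 ± 3.95 CPM, edgeR adjusted p = 0.00236), and *Susd4*, an inhibitor of the C3 convertases, fell by 0.19 (100.1 ± 2.85 to 88.0 ± 4.73 CPM, edgeR adjusted p = 0.032). The call of *Susd4* was lost in 11 of 21 alternatives, among them leaving out control 1, 4 or 5 or nlsYAP5SA mouse 1, 4 or 5, with edgeR adjusted p-values of up to 0.368. *Cd55* and *Cr1l*, which restrain the C3 convertases on cell surfaces, had log2 fold changes of -0.031 (SE 0.079) and -0.025 (SE 0.079) and were not called; the sign of each turned under some alternatives. *Cfi*, for the protease factor I, held 1 to 7 counts per library in these groups and was not tested.

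Receptors for bound C3 fragments and for C5a were among the other genes that rose. *Itgb2*, the beta chain of complement receptors 3 and 4, was 2.78, 2.43, 2.42, 2.77 and 2.03 CPM in controls and 7.36, 9.27, 5.41, 9.56 and 9.92 CPM in nlsYAP5SA mice. No mouse overlapped between the groups, and the log2 fold change was 1.73 (SE 0.17, edgeR adjusted p = 3.5e-05). *Itgam*, the alpha chain of complement receptor 3, rose from 16.6 ± 4.14 to 34.3 ± 10.4 CPM with overlap (log2 fold change 1.05, edgeR adjusted p = 0.00967). *Itgax*, the alpha chain of complement receptor 4, held 0 to 5 counts in controls, 2 to 3 in C57BL/6 mice and 2 to 35 in nlsYAP5SA mice, and was not tested against controls. *C5ar2*, the second C5a receptor and a neighbour of *C5ar1* on chromosome 7, rose from 0.513 ± 0.145 to 1.14 ± 0.207 CPM (log2 fold change 1.14, SE 0.23, edgeR adjusted p = 0.00706). It was 0.887 ± 0.282 CPM in the 3 C57BL/6 mice and was not called against them (log2 fold change 0.35, SE 0.27, edgeR adjusted p = 0.509).

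**Figure D3:**
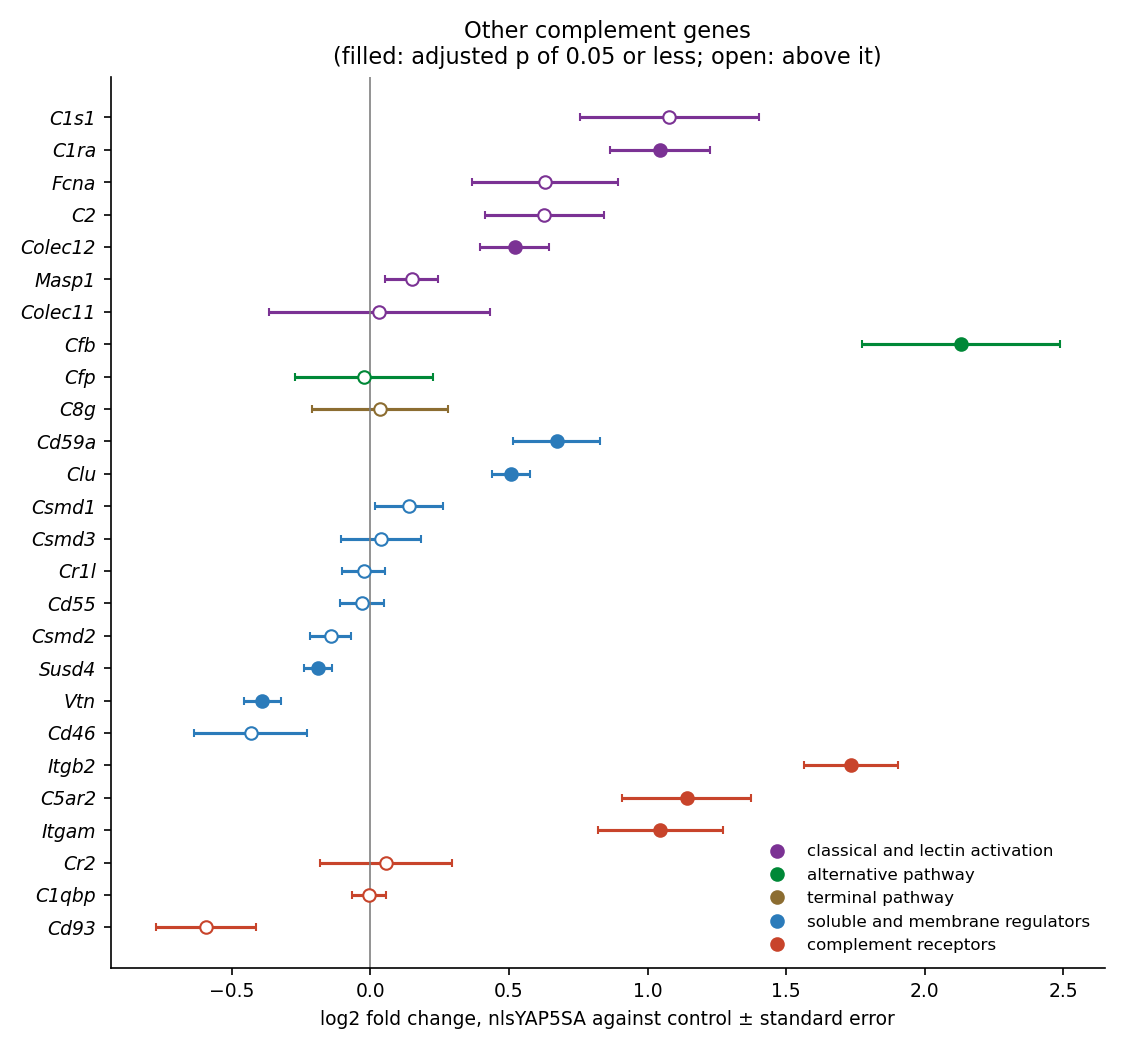
Log2 fold change, nlsYAP5SA against control, with its standard error for 26 of the 27 other complement genes that were tested, grouped by role. Filled points had an adjusted p of 0.05 or less; Cfb, Itgb2, C5ar2, Itgam and C1ra are the filled points above 1, C1s1 is an open one, and Vtn and Susd4 are the filled points below 0.

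Cell type markers moved beside the complement genes. The counts of called markers stand beside 7.36% of all genes tested called higher and 3.44% called lower. Each of the 12 homeostatic microglial markers was detected in every library. Together they summed to 384 to 479 CPM in controls and 508 to 654 CPM in nlsYAP5SA mice. Of the 12, 6 rose, 0 fell, and the median log2 fold change was 0.36. *Csf1r*, the receptor on which microglia depend, rose from 80.0 ± 10.4 to 135 ± 14.9 CPM (edgeR adjusted p = 2.5e-04). Of the 11 activated microglial genes tested, 9 were called higher and 1 lower, with a median of 0.86. Only 10 of this list passed the filter between C57BL/6 and control mice, without the nlsYAP5SA group. *Apoe*, a lipid carrier, was called higher and *Lpl*, a lipase, was the one called lower. Border macrophage markers summed to 33.1 to 50.05 and 39.3 to 59.6 CPM, with 2 of 8 called higher, and *Mrc1* and *Stab1* were not among them.

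Blood myeloid markers were low: 8 genes together summed to 0.330 to 0.981 CPM in controls and 1.13 to 5.17 CPM in nlsYAP5SA mice. Of these only *Ccr2*, a chemokine receptor of monocytes, passed the filter. It was 0 to 0.469 CPM in controls and 0.497, 4.38, 0.260, 1.13 and 1.17 CPM in nlsYAP5SA mice, so mouse 2, which also had the most *C3ar1*, stood far above the rest. *Ccr2* was called higher (log2 fold change 2.90, edgeR adjusted p = 0.0376), but not without that mouse (1.96, adjusted p = 0.0958) and not in 9 of 20 alternatives in all, which include leaving out control 1, 3, 4 or 5 or nlsYAP5SA mouse 5. It held 0 to 12 counts in controls and passed the filter through the nlsYAP5SA mice, so the size of its change is uncertain. *Plac8* was 0.208 ± 0.0903 and 0.554 ± 0.349 CPM. Reactive astrocyte genes rose strongly, with 9 of 10 called higher, where 7.36% of all genes tested were. Their median log2 fold change was 1.76, with sums of 256 to 304 CPM in controls and 885 to 1157 CPM in nlsYAP5SA mice. Only 7 of the 10 passed the filter between C57BL/6 and control mice. The rest entered the count and the median through the nlsYAP5SA mice, where they were high. *Gfap*, the intermediate filament of astrocytes, rose from 181 ± 8.501 to 753 ± 73.5 CPM and *Vim* from 51.9 ± 4.44 to 132 ± 16.8 CPM. General astrocyte markers summed to 3151 to 5606 and 4358 to 6499 CPM, with 3 of 8 higher and 1 lower; *Slc1a3* was called and *Slc1a2* was not. The part of these cell type markers in the levels of the 8 genes was not tested beyond the ratios given further on.

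Endothelial markers had 3 of 6 called lower, *Slco1c1* among them and *Flt1* not, and oligodendrocyte markers such as *Mbp* had 0 of 6 called, with a median of -0.54. Of 8 neuronal markers 1, *Neurod6*, was called lower, and *Syt1* and *Snap25* were not called. *Neurod6* is the locus that holds Cre in nlsYAP5SA mice and not in controls. The part of that allele in its level was not tested. Of 8 genes of fibroblasts and meninges 1 was higher, *Col1a2*, and 1 lower, with *Igf2* not called. Of 8 choroid plexus genes 1 was called higher, neither *Ttr* nor *Clic6*, with a median log2 fold change of 0.65. Of 6 genes of ciliated ependymal cells 1, *Foxj1*, was called higher, with *Rsph1* not called and a median of 0.54.

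**Figure D4:**
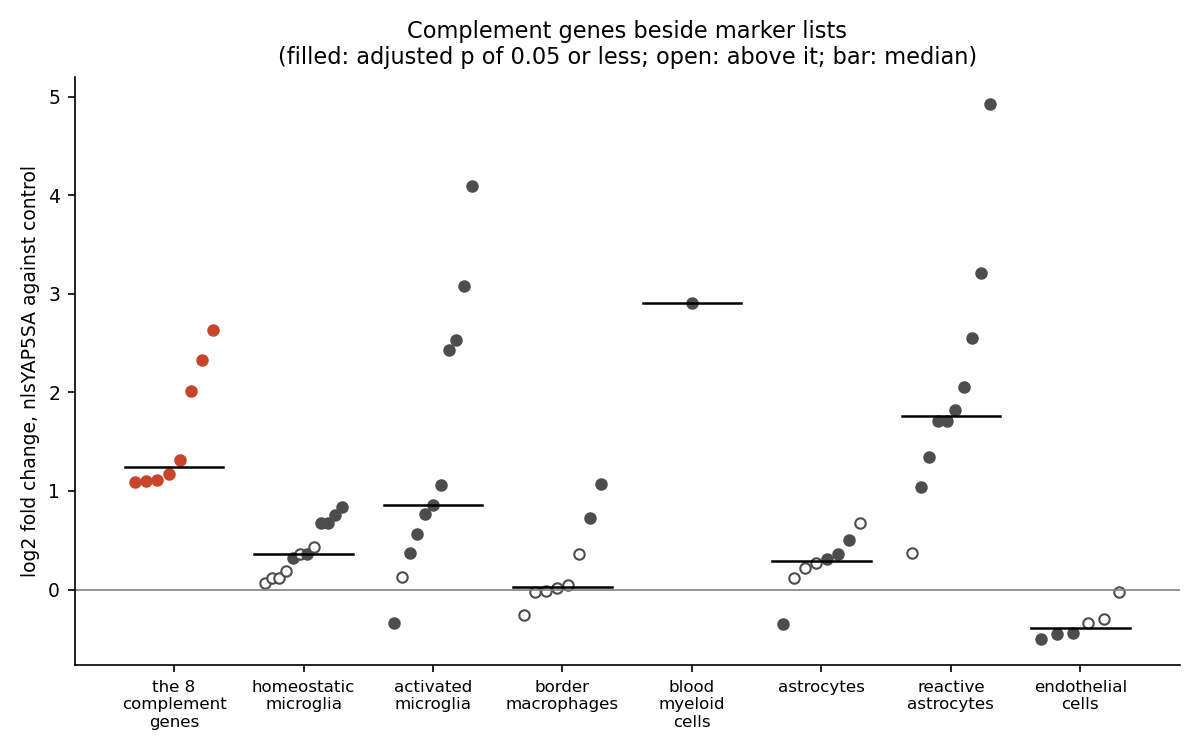
Log2 fold change, nlsYAP5SA against control, of the 8 complement genes and of the tested genes of 7 marker lists. Filled points had an adjusted p of 0.05 or less and bars are medians: 1.24 for the 8 genes, 0.36 for homeostatic microglia, 0.86 for activated microglia and 1.76 for reactive astrocytes. Points of the activated microglial, blood myeloid and reactive astrocyte lists include genes that passed the filter through the nlsYAP5SA mice.

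Ratios within a sample, which do not depend on scaling between libraries, asked whether a complement gene moved with the markers of cells known to express it. The 9 ratios were tested on 5 against 5 mice by exact permutation, two-sided, for which the smallest possible p is 0.00794. The log2 ratio of *C1qb* to the mean of the homeostatic microglial markers was 0.045, -0.19, -0.41, -0.39 and -0.34 in controls and 0.84, 0.70, 0.75, 0.33 and 0.65 in nlsYAP5SA mice. *C1qb* was thus higher relative to these markers in every nlsYAP5SA mouse, by 0.91 on the log2 scale or 1.88-fold (exact permutation p = 0.00794, adjusted 0.00893 over the 9 ratios). The ratio of *C3ar1* to the same markers was 2.96-fold higher and that of *C5ar1* 3.8-fold higher, each without overlap and with the same exact p. The ratio of *C3* was 1.57-fold higher with overlapping groups (exact permutation p = 0.0317, adjusted 0.0317). It missed the threshold in 7 of 13 alternatives, at an adjusted exact permutation p of 0.0635: with a pseudocount of 0.5 CPM, and without control 2, 3 or 4 or nlsYAP5SA mouse 1, 2 or 5. No ratio to the activated microglial genes, whose median log2 fold change was 0.86, was tested.

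*C4b* rose relative to the general astrocyte markers and to *C1qb*. Against the astrocyte markers its log2 ratio was -4.93, -5.30, -4.92, -4.88 and -4.72 in controls and -2.38, -2.73, -3.09, -2.37 and -2.29 in nlsYAP5SA mice. The groups were far apart, at a 5.2-fold difference (exact permutation p = 0.00794, adjusted 0.00893). Against *C1qb* it was 2.48-fold higher, again without overlap and with the same exact p. The general astrocyte markers had a median log2 fold change of 0.29 and the reactive astrocyte genes one of 1.76. No ratio of *C4b* to the reactive astrocyte genes was tested. *Serping1* relative to endothelial markers was 2.71-fold higher (exact permutation p = 0.00794); 3 of the 6 markers were called lower.

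The chains of C1q did not rise by exactly the same factor. The log2 ratio of *C1qc* to *C1qb* was 0.14, 0.26, 0.27, 0.27 and 0.29 in controls and -0.074, 0.11, 0.025, 0.13 and 0.013 in nlsYAP5SA mice. All 5 nlsYAP5SA mice were below all 5 controls, by a mean of -0.20, which is 0.868-fold (exact permutation p = 0.00794, adjusted 0.00893). Control 1, at 0.1355, and nlsYAP5SA mouse 4, at 0.1326, nearly touched. *C1qa* relative to *C1qb* was 0.908-fold, also without overlap and with the same exact p. In C57BL/6 mice the ratio of *C1qc* to *C1qb* spanned 0.088 to 0.30, overlapping both groups, and that of *C1qa* to *C1qb* spanned -0.11 to 0.15.

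**Figure D5:**
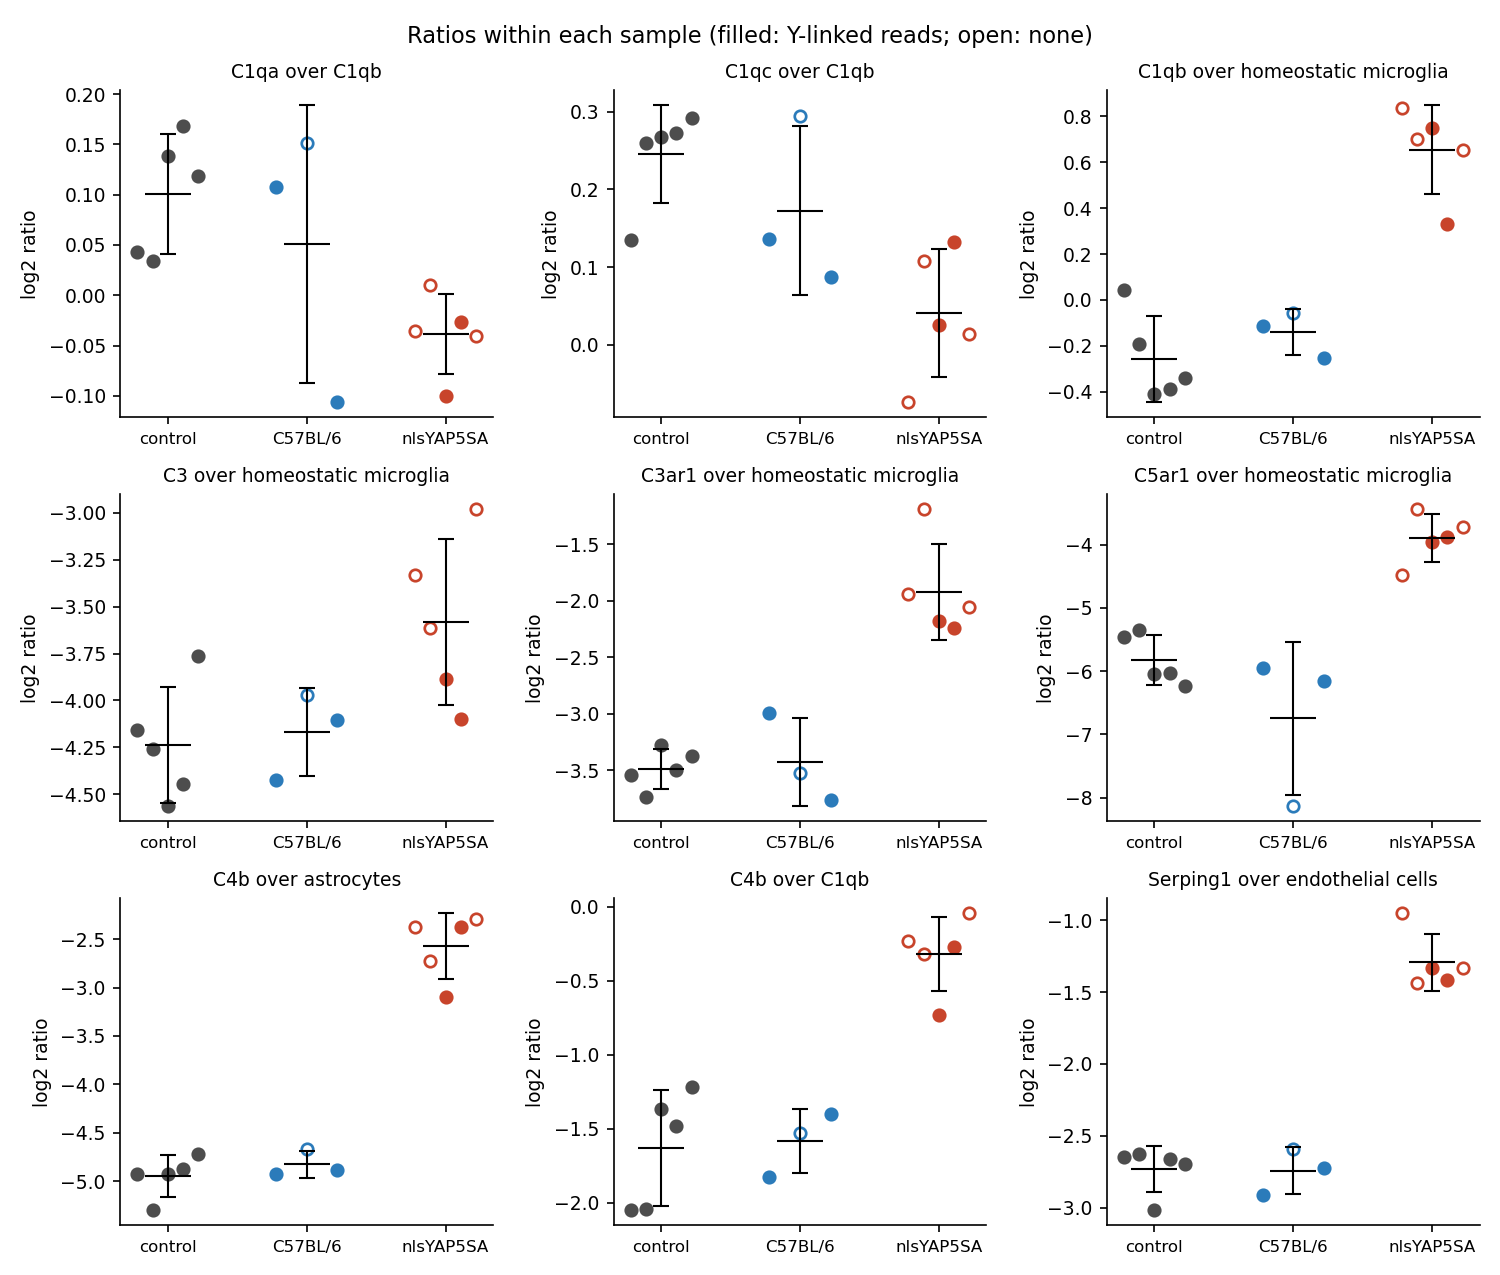
Log2 ratios within each sample for 9 pairs of a complement gene and another gene or marker list; points are mice, filled with and open without Y-linked reads, with mean and SD, and each panel has its own axis. The C3 panel is the one in which control and nlsYAP5SA points overlap.

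The genes most like each member were sought by Pearson correlation of log2 levels over 13 samples after each group mean was taken out, with the search limited to genes that averaged 50 counts or more. These are descriptions over libraries that share depth and the imbalance in Y-linked reads. *C1qa* was most like *C1qc* (r = 0.943), *C1qb* (r = 0.942) and *Lsr*, a receptor for lipoproteins (r = 0.932). *C1qb* was most like *C1qa*, *Tmem176b* (r = 0.929) and *Lsr* (r = 0.925), and *C1qc* most like *P4hb*, the enzyme protein disulfide isomerase (r = 0.962), *Tmem98* (r = 0.945) and *C1qa*. *C4b* was most like *Rgp1* (r = 0.936), the protease gene *Prss23* (r = 0.928) and the growth factor gene *Bmp7* (r = 0.894). *Prss23* also rose between the groups, at a log2 fold change of 2.10 (edgeR adjusted p = 2.3e-07), while *Rgp1* and *Bmp7* were not called.

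*C3* was nearest to *Serpinb9* (r = 0.86) and *Abcc10* (r = 0.853), and *Serping1* to *F11r* (r = 0.847), *Ftsj3* (r = 0.841) and *Nrros* (r = 0.833). *C3ar1* was nearest to the transporter gene *Abcb1b* (r = 0.927), *Gm16638* (r = 0.866) and *Igf2* (r = 0.862), and *C5ar1* to *Tent5c* (r = 0.949), *Gm9755* (r = 0.895) and *Limd1* (r = 0.863). In both receptors 1 library stood apart within its group, nlsYAP5SA mouse 2 for *C3ar1* and C57BL/6 mouse 2, at 0.0958 CPM, for *C5ar1*. Of the 19 nearest genes over all members that are not members themselves, 8 were called higher in nlsYAP5SA than in control mice, beside 6.71% of all genes that averaged 50 counts or more, 0 were called lower and 11 were not called.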

How the data were processed

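RNA from the right hemisphere of 13 mice was sequenced by the authors with an mRNA library kit. For these libraries the authors used CutAdapt 1.5 for trimming, STAR for alignment to GRCm38 and Ensembl transcripts, and SAMtools 1.8, and they deposited estimated counts per gene from RSEM 1.3.0, with no normalization. RSEM divides reads that match several genes among them, which bears on *C4b* and *C4a*; the strand setting is not given in the sources used here. Groups and replicate numbers came from the labels, each sample being 1 mouse, and no sequencing batch is named.

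Estimated counts were rounded. CPM used edgeR's TMM factors. The test was the two-sided quasi-likelihood test of edgeR 4.0.16 (R 4.3.3) on genes kept by filterByExpr, fitted to the groups compared, with p adjusted by Benjamini-Hochberg over all genes tested and a threshold of 0.05. DESeq2 1.42.0 was an alternative to edgeR, although the study's own tests used it. Ratios were log2 CPM differences within a sample, tested by exact permutation in scipy 1.17.1. The step was tried on simulated counts. Likeness used log2 (CPM + 0.5). Positions are from GENCODE M21 and promoters from RefSeq, and 48349 of the 48795 identifiers matched a symbol. A count of 0 allows up to 3 counts, and counts of reads cover counting error only. No 2 libraries of a group agreed within sampling noise.

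The genes described were the 8 members in every sample, 19 of the other complement genes (12 called in any comparison, the rest fixed by name), the 2 most abundant genes of each marker list, *Yap1*, *Neurod6* and the 3 genes most like each member. A few genes that this rule names are not reported here, although counts over lists include them. The members and lists were chosen with earlier results of these data known. The alternatives were other scaling, filters, DESeq2, all 13 samples together, the replicate number as a block, Y-linked and *Ttr* covariates, *C4a* and *C4b* summed, other ratio settings and leaving out each mouse. The comparison of only samples with Y-linked reads was added after the data were seen.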

Additional observations from a re-analysis of the deposited data

Results flagged for a closer look

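Of 64 sets of 5 values tested for a mouse far from the others of its group (Dixon's test), 7 held one, where chance gives about 5%. In nlsYAP5SA mice, *C3ar1* was 14.1 CPM in mouse 2 against 6.06 to 8.38 CPM in the others, and its log2 ratio to homeostatic microglial markers was -1.19 there against -2.24 to -1.94. *Cd59a* was 8.14 CPM in nlsYAP5SA mouse 5 against 4.69 to 5.60 CPM in the others. *C5ar2* was 0.780 CPM in nlsYAP5SA mouse 3 against 1.18 to 1.31 CPM in the others. The log2 ratio of *C1qc* to *C1qb* was 0.14 in control 1 (0.1355 before rounding) against 0.26 to 0.29. The log2 ratio of *Serping1* to endothelial markers was -3.02 in control 3 against -2.70 to -2.63, and -0.95 in nlsYAP5SA mouse 1 (-0.9525 before rounding) against -1.44 to -1.33.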

How the results depend on the processing

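Between nlsYAP5SA and control mice all 8 genes were called under every alternative except 3, which called 7. The Y-linked covariate and the comparison of only samples with Y-linked reads lost *C3*, and requiring 10 counts of a gene in each library left *C5ar1* untested. Over the 8 genes, 165 of 167 refits kept direction and call. Leaving out each mouse in turn called 8 every time. The Y-linked covariate gave 542 called genes in place of 1761 and 4 other complement genes in place of 11. Only samples with Y-linked reads gave 334 and 2, and fewer mice entered that fit. Without 1 mouse the count of all genes ran from 1210 to 1891 and of other complement genes from 8 to 13. All 9 ratios were called, and 8 to 9 without 1 mouse and 8 with the pseudocount; the one lost was that of *C3*.

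Between C57BL/6 and control mice 0 of the 8 genes were called under any alternative. The count of 28 called genes became 16 with at least 10 counts in every sample, 59 with DESeq2 and 44 with all 13 samples in one fit. Signs of these small differences turned in 15 of 147 refits. With the Y-linked covariate, the log2 fold change was -0.042 for *C1qa*, -0.08 for *C1qc* and -0.062 for *C3*, and with only samples with Y-linked reads it was -0.044, -0.086 and -0.078. With the *Ttr* covariate *C3* was at -0.027. Without 1 mouse, *C1qa* ran from -0.044 to 0.268, *C1qc* from -0.086 to 0.216, *C3* from -0.078 to 0.231, *C3ar1* from -0.137 to 0.296 and *Serping1* from -0.091 to 0.027. Between nlsYAP5SA and control mice, *Cr1l* was at 0.025 with the *Ttr* covariate and ran from -0.073 to 0.015 without 1 mouse, and *Cd55* ran from -0.056 to 0.003.

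Between nlsYAP5SA and C57BL/6 mice 7 of the 8 genes were called, and 7 to 8 without 1 mouse. Only samples with Y-linked reads left 3, *C1qb*, *C1qc* and *C4b*, and 47 called genes in place of 1061. DESeq2 called 1596 genes. Without 1 mouse the count ran from 401 (without C57BL/6 mouse 1) to 1757 (without C57BL/6 mouse 3), and it was 581 without C57BL/6 mouse 2, 636, 645 and 509 without nlsYAP5SA mice 1, 2 and 5. The cause was not tested.

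The replicate numbers did not pair the mice: same-numbered nlsYAP5SA and control mice correlated at -0.315 to 0.312 in their deviations from the group means, and not every mouse was nearest to its own number. With the replicate number as a block, all 8 genes were called against controls, with 1239 genes in all. It called 11 other complement genes, but not the same ones: among those described here, *Colec12* (edgeR adjusted p = 0.0507) and *Susd4* (0.102) lost their calls and *C1s1* (0.011) gained one. The block called 15 genes between C57BL/6 and control mice, with *Serping1* at 0.095, and 47 between nlsYAP5SA and C57BL/6 mice, with 2 of the 8 among them. In that last fit only the 6 mice whose number occurs in both groups bear on the difference. The 5 genes that lost their calls (edgeR adjusted p from 0.0595 to 0.16) had log2 fold changes of 1.08 for *C1qa*, 1.02 for *C1qc*, 1.92 for *C3ar1*, 2.79 for *C5ar1* and 1.08 for *Serping1*.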
